A study of Mus musculus with 40 samples.

Results

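The Hox genes of paralog groups 6 to 8 are the 8 genes Hoxa6, Hoxb6, Hoxc6, Hoxa7, Hoxb7, Hoxb8, Hoxc8 and Hoxd8. The rule took them by symbol from the 26411 genes counted in each library and used no measured value. RNA-seq counts were available for 40 mouse samples on a C57BL/6 background, 24 whole embryos at E9.5 and 16 sorted samples of fetal liver LSK cells at E14.5 (E, embryonic day). LSK cells are lineage marker-negative, SCA-1-positive and c-KIT-positive, the gate that holds haematopoietic stem and multipotent progenitor cells. At E9.5 there were 6 genotypes with 4 embryos each. Wild type (WT) embryos carried normal alleles of both genes. Kat6a-/- embryos (cfd alleles) and Kat6b-/- embryos (dec alleles) carried 2 null alleles from which several exons had been deleted. Kat6aE/E embryos carried 2 copies of the point mutation G656E and Kat6bE/E embryos 2 copies of G577E, each a glycine to glutamic acid change in the acetyl-CoA binding part of the acetyltransferase domain. The sixth genotype, Kat6aE/E;Kat6bE/E, carried both point mutations and is called the double mutant. At E14.5 there were 4 samples each of WT, Kat6aE/E, Kat6bE/E and the double mutant, and no null. The mutations were germline alleles, and the E9.5 embryos had been picked for a similar outward appearance across genotypes.

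Hox genes encode homeodomain transcription factors that lie in 4 clusters, and their order along a cluster matches the order in which they are switched on and the body level at which their expression begins. Genes at the same place in different clusters are paralogs and share much of their sequence and function. Paralog groups 6 to 8 occupy the middle of the clusters and are known for patterning the thoracic part of the axis, where ribs form, and the neighbouring spinal cord and lateral mesoderm. In blood, genes of the Hoxa cluster are the ones best known from stem and progenitor cells. KAT6A and KAT6B are histone acetyltransferases of the MYST family, and KAT6A is known to be needed for normal Hox expression domains in the embryo. The comparisons asked how the mid-cluster Hox genes differed when either protein was lost and when only its catalytic domain was mutated.

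The members lie on 4 chromosomes, and each canonical transcript has 2 exons (GRCm39, GENCODE vM39 annotation). Hoxa6 (chr6:52183268-52185702) and Hoxa7 (chr6:52191471-52198834) are on the minus strand, Hoxb8 (chr11:96172731-96176160), Hoxb7 (chr11:96177449-96180988) and Hoxb6 (chr11:96183280-96192395) on the plus strand. Hoxc8 (chr15:102898851-102902543), Hoxc6 (chr15:102906689-102920315) and Hoxd8 (chr2:74534959-74538297) are also on the plus strand. Of the annotated exon bases, 30.8% in Hoxb6 overlap Hoxb5os, 20.3% in Hoxa7 overlap Hoxaas3 and 15% in Hoxd8 overlap Hoxd3os1, all on the opposite strand, so that in these unstranded libraries reads of the partners cannot be told apart. The other 5 members have no such overlap. Promoter sequences are shown for the 3 members whose levels the results turn on and that had an entry, Hoxb8 as the member with the highest level in embryos and Hoxa6 and Hoxa7 as the ones with more than traces in LSK cells. Each is the 250 bases before the transcription start on the gene's strand in RefSeq (GRCm38.p6), written 5′ to 3′. Capitals mark TTTATNG, a motif of the CDX factors that act upstream of mid-cluster Hox genes.
Hoxb8 (chr11:96281655-96281904, plus strand): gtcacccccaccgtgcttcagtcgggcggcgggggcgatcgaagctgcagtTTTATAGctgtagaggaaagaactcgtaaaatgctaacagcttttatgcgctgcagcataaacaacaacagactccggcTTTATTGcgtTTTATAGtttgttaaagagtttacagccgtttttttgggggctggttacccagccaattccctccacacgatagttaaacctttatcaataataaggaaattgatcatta
Hoxa6 (chr6:52208673-52208922, minus strand): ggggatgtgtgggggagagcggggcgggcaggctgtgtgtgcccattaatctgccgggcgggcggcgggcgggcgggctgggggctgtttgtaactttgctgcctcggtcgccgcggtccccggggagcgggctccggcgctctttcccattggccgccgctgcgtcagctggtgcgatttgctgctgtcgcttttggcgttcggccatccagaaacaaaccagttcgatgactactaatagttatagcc
Hoxa7 (chr6:52218574-52218823, minus strand): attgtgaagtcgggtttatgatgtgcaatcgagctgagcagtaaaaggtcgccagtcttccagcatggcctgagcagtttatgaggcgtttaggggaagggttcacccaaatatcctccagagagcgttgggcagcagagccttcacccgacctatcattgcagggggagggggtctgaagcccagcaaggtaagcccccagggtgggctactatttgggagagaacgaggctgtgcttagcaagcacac
The Hoxb8 window held 3 matches, at positions -199, -120 and -110 from the start, and the windows of Hoxa6, Hoxa7 and Hoxd8 held none. Over 32851 promoter windows of the same length searched on both strands, 9.81% held a match. The Hoxa6 window was the richest in CpG with 24 dinucleotides and 65.2% GC, against 12 and 44.4% in Hoxb8, 7 and 54.8% in Hoxa7, 6 and 44.4% in Hoxd8, and medians of 6 and 52.4% over all windows. These are matches of letters, and binding was not measured. Hoxb6, Hoxc6, Hoxb7 and Hoxc8 had no entry.

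Some of the members also carry target sequences of miR-196, a microRNA family encoded inside the Hox clusters that is known for cleaving Hoxb8 mRNA. Both mature mouse forms (RefSeq) are shown with the seed, bases 2 to 8, in capitals.
miR-196a-5p: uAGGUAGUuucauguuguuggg
miR-196b-5p: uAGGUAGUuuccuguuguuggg
The Hoxb8 3′ UTR holds the longest pairing, shown with the paired bases in capitals, and the sites of Hoxa7, Hoxb7 and Hoxc8 are shown with the seed match in capitals, all 5′ to 3′ on the gene's strand from GRCm39.
Hoxb8 (chr11:96175714-96175735, plus strand): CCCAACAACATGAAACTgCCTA
Hoxa7 (chr6:52192190-52192211, minus strand): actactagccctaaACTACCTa
Hoxb7 (chr11:96180610-96180631, plus strand): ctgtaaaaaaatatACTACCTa
Hoxc8 (chr15:102902165-102902186, plus strand): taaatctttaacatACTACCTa
In Hoxb8, 21 of 22 bases could pair with miR-196a-5p, and the other formed a G:U pair. Of 20858 canonical 3′ UTRs, Hoxb8's was the only 1 with that many. The best site in the other members paired at 10 to 15 bases. A perfect match to the seed was found 4 times in Hoxa7, 2 times in Hoxc8 and 1 time each in Hoxb6 and Hoxb7, and in 4 of 31 other Hox 3′ UTRs. Over all UTRs, 6.71% held such a match. Counts on the rows of the hairpin genes were few: Mir196a-1 had 279 over the 24 embryo libraries and 22 over the 16 LSK libraries, Mir196a-2 had 12 and 0, and Mir196b had 33 and 94. Libraries of long RNA do not measure the mature microRNA.

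Each E9.5 library held 8401990 to 23339359 counts (median 15317052) and each E14.5 library 12270376 to 59216547 (median 21709236). All 8 members passed the filter on low counts at E9.5, with 89 to 1079 counts per library, and were tested among 14183 genes. At E14.5 only Hoxa6 and Hoxa7 passed, among 13071 genes tested. Whole-gene counts did not show the deletions as a loss. Kat6a stood at 166 ± 4.69 CPM (counts scaled to library size) in Kat6a-/- embryos and 176 ± 8.45 in WT embryos (SD, n = 4). Kat6b stood at 54.4 ± 2.75 in Kat6b-/- and 40.4 ± 2.51 in WT. The Kat6a counts therefore do not check the Kat6a-/- label. The Kat6b counts set the Kat6b-/- embryos apart, but upwards (52 to 58.3 CPM against 38.2 to 42.6 in WT). The embryos came from 17 litters and the LSK samples from 9 (3 E9.5 litters held both a WT and a mutant embryo). The study describes the E9.5 embryos as male, but Xist, a transcript of the inactive X chromosome, exceeded 100 CPM in 3 of the 24 E9.5 libraries (Kat6a-/- replicate 2 and Kat6b-/- replicates 2 and 3) and in 5 of the 16 E14.5 libraries. With Xist as a covariate no member was called at either stage. None was called without it either, so that this does not test the part of sex. In bulk RNA, fewer cells that express a gene and less RNA in each such cell cannot be told apart. All the markers of forebrain, tail bud, somite, lateral plate, spinal cord, liver, erythroid cells and endothelium that were examined had a median above 0 in the embryos, and the 8 LSK markers were detected in all 16 LSK libraries, with Ly6a (SCA-1) at 0.937 to 10.3 CPM and Kit at 351 to 552 CPM. The 8 LSK markers summed to 1120 to 2280 CPM, and 5 markers of mature myeloid cells to 3370 to 5950 CPM, of which Mpo, a granule enzyme of myeloid progenitors, gave 2480 to 5120.

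Among the members, Hoxb8 had the highest level for its length at E9.5. In FPKM, which is CPM divided by the gene length in kilobases, a scale that allows genes to be compared, the 4 WT embryos had 18.8, 20.6, 19.8 and 14.7 for Hoxb8 (mean 18.5 ± 2.62, SD, n = 4). The order of the WT means then ran from Hoxc6 at 12.3 ± 2.89 and Hoxb6 at 10.8 ± 2.49 through Hoxc8 at 9.72 ± 1.16 and Hoxb7 at 8.69 ± 1.25 to Hoxd8 at 6.30 ± 1.62, Hoxa6 at 5.63 ± 2.56 and Hoxa7 at 4.36 ± 0.748. Every pair of neighbours in this order overlapped in range over the 4 embryos. The genes were measured in the same embryos, and their order within each embryo was not compared. Hoxb8 had the highest mean in all 6 genotypes. The gene lengths are those in the deposited files, and they set the scale: Hoxa6 has 2254 bases there and 874 exon bases in GENCODE, Hoxb6 1419 and 2319. In LSK cells the order was another one. Hoxa7 was first at 8.01 ± 2.82 FPKM in WT samples, and Hoxa6 second at 3.75 ± 1.00, with ranges that overlapped. None of the other 6 had a mean above 0.551 FPKM in any of the 4 genotypes. Single samples came closer: in double mutant replicate 2 Hoxb7 was at 1.84 FPKM, above Hoxa7 at 1.04 and Hoxa6 at 0.671, and in Kat6aE/E replicate 2 Hoxb6 at 1.64 was just under Hoxa6 at 1.80.

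**Figure D1:**
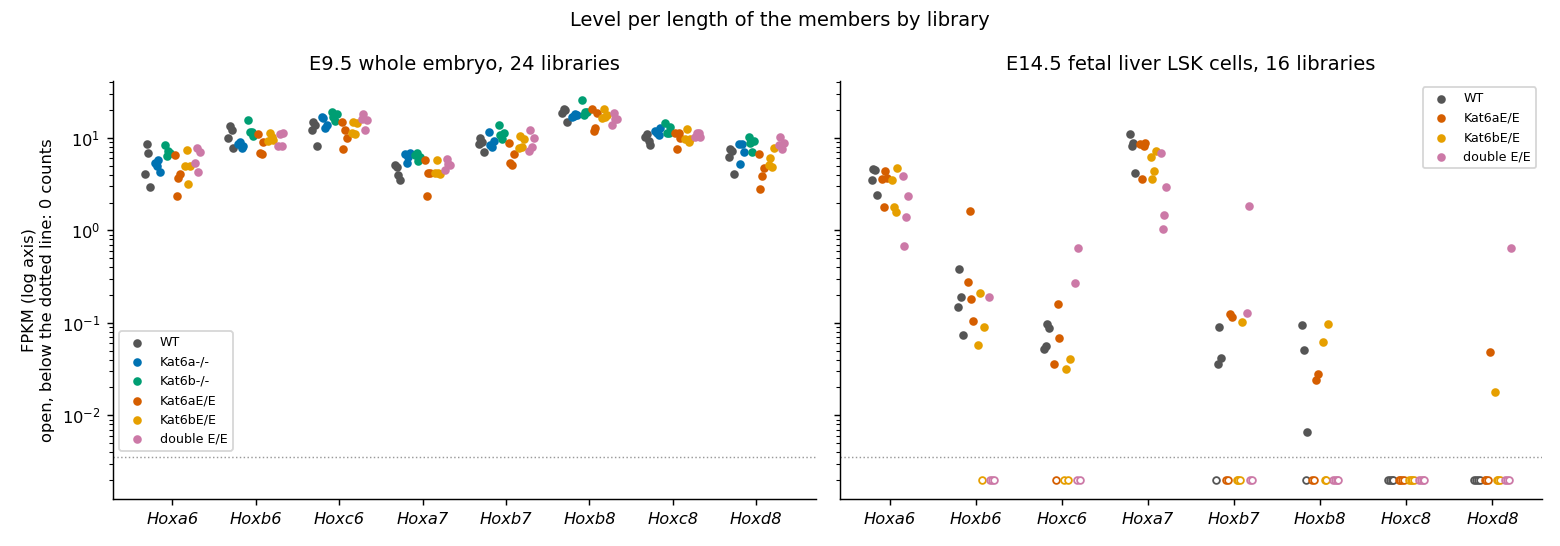
Levels of the 8 members in FPKM on a log axis, 1 point per library, in E9.5 embryos and E14.5 LSK samples. All 8 genes are above 2 FPKM in every embryo, while in LSK samples Hoxa7 and Hoxa6 have the highest means in each genotype and the other 6 reach 1.84 FPKM (Hoxb7 in double mutant replicate 2).

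Group 6 held Hoxa6, Hoxb6 and Hoxc6, of which Hoxc6 is known for specifying the motor neurons that innervate the limb and Hoxb6 for its expression in lateral plate mesoderm. For Hoxc6 the 4 WT embryos measured 19.5, 23.6, 22 and 13.1 CPM (a scale for comparing libraries, not genes), and the 4 Kat6b-/- embryos 30.3, 26.9, 24.1 and 29.1. Every Kat6b-/- embryo was thus above every WT embryo. In the other mutants Hoxc6 ranged from 20.6 to 26.6 CPM (Kat6a-/-), 12.1 to 23.5 (Kat6aE/E), 17.4 to 23.6 (Kat6bE/E) and 19.5 to 28.9 (double mutant), all overlapping with WT. Hoxb6 measured 14, 18.9, 17.5 and 11 CPM in WT and 12.4, 12.9, 11 and 11.6 in Kat6a-/- embryos, which were the tightest of any genotype (SD 0.817). The Kat6a-/- values lay in the lower part of the WT range and overlapped with it. In Kat6b-/- embryos Hoxb6 measured 22.1, 16.4, 16.5 and 14.7 CPM, and all 4 were above all 4 Kat6a-/- embryos. Hoxa6 varied most among WT embryos, from 6.70 to 19.3 CPM, and every mutant group overlapped with that range. It measured 9.55 to 13.1 CPM in Kat6a-/- and 14.3 to 18.8 in Kat6b-/- embryos, ranges that did not overlap with each other.

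Group 7 held Hoxa7 and Hoxb7. Hoxa7 is known, with its neighbours Hoxa6 and Hoxa9, from haematopoietic progenitors and leukaemias, and Hoxb7 from the nephric duct. Hoxa7 measured 17.4, 16.5, 13.5 and 12 CPM in WT embryos. Kat6a-/- embryos measured 23, 18.1, 21.3 and 23.2, and Kat6b-/- embryos 22, 23.3, 19.1 and 21.1. All 8 null embryos lay above all 4 WT embryos. Kat6aE/E embryos measured 19.4, 8.06, 14.3 and 14.1 CPM, Kat6bE/E embryos 14.2, 19.7, 14.2 and 13.8, and double mutants 15.2, 20.2, 17.6 and 17.3. Each of these groups overlapped with WT. Hoxb7 measured 11, 12.8, 11.4 and 8.95 CPM in WT and 11.2, 6.77, 6.44 and 8.55 in Kat6aE/E embryos. There 3 of the 4 Kat6aE/E embryos fell below the lowest WT embryo and 1 did not. In Kat6b-/- embryos Hoxb7 measured 12.3 to 17.6 CPM, overlapping with WT at its lowest embryo.

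Group 8 held Hoxb8, Hoxc8 and Hoxd8, of which Hoxc8 is known for thoracic vertebral identity and for forelimb motor pools. Hoxc8 measured 24, 26.2, 22.2 and 19.7 CPM in WT and 34.2, 26.8, 26.9 and 31.1 in Kat6b-/- embryos, which all lay above WT. Its Kat6a-/- range of 25.6 to 30.1 CPM overlapped with WT at 1 end. Hoxd8 measured 14.1, 17.6, 16.7 and 9.33 CPM in WT, 15.3, 6.46, 8.82 and 10.9 in Kat6aE/E and 11.7, 13.9, 11.1 and 17.8 in Kat6bE/E embryos. Double mutants measured 19.4, 23.6, 17.5 and 20.1 CPM, all above every Kat6aE/E embryo and overlapping with WT and Kat6bE/E at their lowest embryo. Hoxb8 had group means of 42.1 (Kat6aE/E) to 53.8 CPM (Kat6b-/-) around 48.9 in WT.

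**Figure D2:**
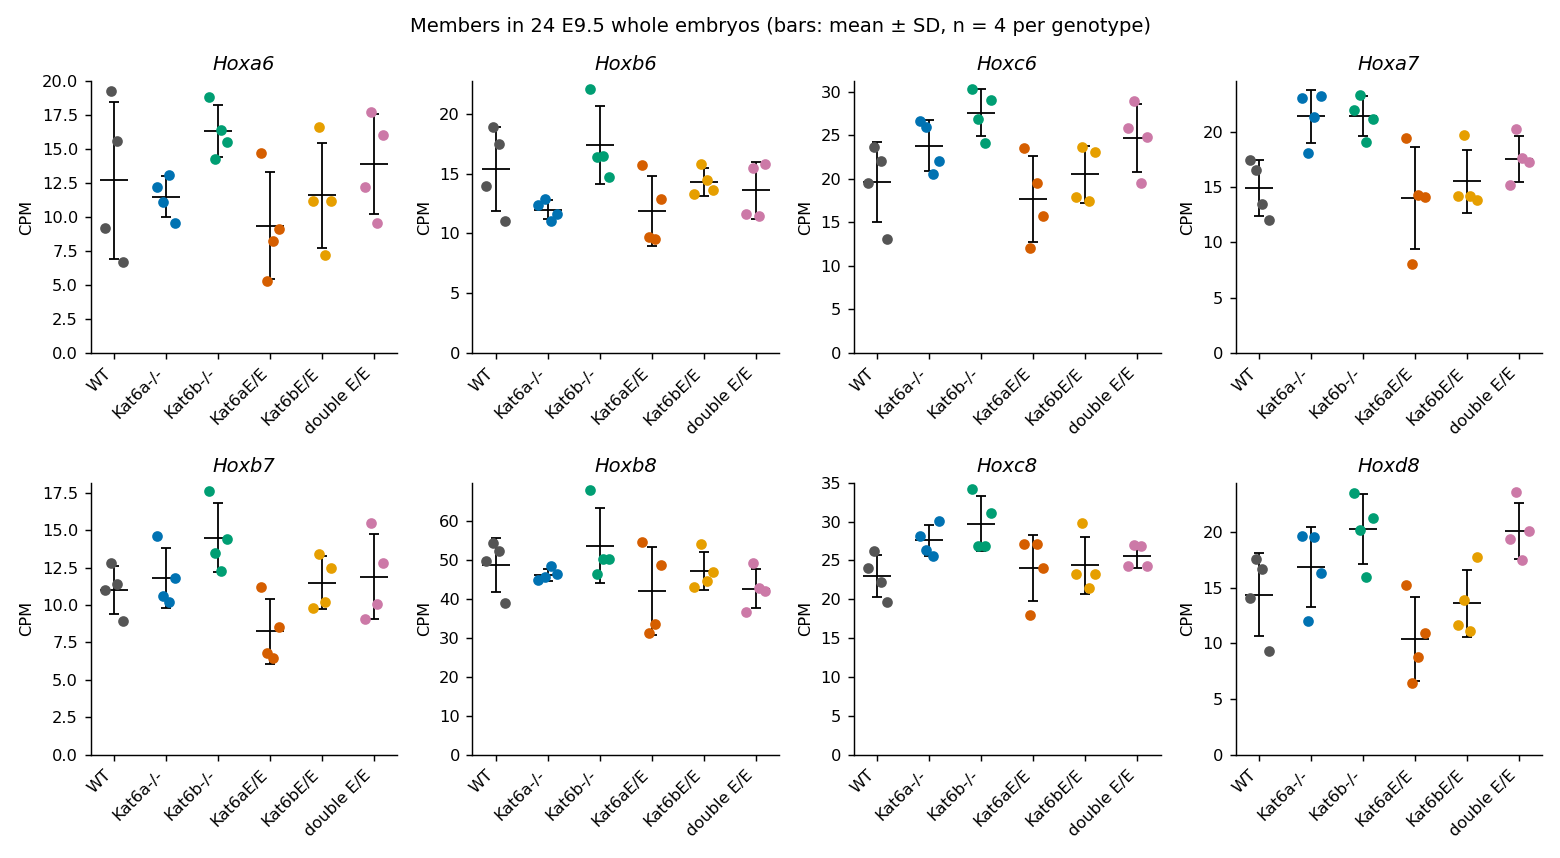
CPM of each member in the 24 E9.5 embryos, grouped by genotype, with 1 point per embryo and a bar at the group mean. Hoxa7 lies above WT in all 8 null embryos, and Hoxc6 and Hoxc8 lie above WT in all 4 Kat6b-/- embryos.

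No member was called at an adjusted p under 0.05 in any of the 15 comparisons (limma, with counts modelled over all genes, 4 surrogate variables and a random block for litter). edgeR's quasi-likelihood test called 0 in all 15 with and without the surrogate variables. DESeq2 called 1, Hoxa7 in Kat6aE/E against Kat6a-/- embryos, at a log2 fold change of -0.62 (adjusted p = 0.0302). All fold changes below are log2 values from the limma fit with their SE, and they carry the adjustment for surrogate variables, which the CPM values do not. The number of all genes called rested in part on the surrogate variables. Against WT, edgeR called 411 genes in Kat6a-/-, 82 in Kat6b-/-, 40 in Kat6aE/E and 483 in double mutant embryos with them, and 159, 0, 0 and 0 without them, while DESeq2 without them called 355, 12, 25 and 194. The comparisons with WT share the same 4 WT embryos, and WT replicate 4 was the lowest WT embryo for all 8 members.

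In Kat6a-/- embryos the members lay on both sides of WT. Hoxa7 was 0.52 ± 0.18 higher in Kat6a-/- embryos (adjusted p = 0.141) and Hoxb6 0.32 lower (-0.32 ± 0.15, adjusted p = 0.269), while Hoxc8 at 0.21 ± 0.11 and Hoxc6 at 0.24 ± 0.13 were above WT and Hoxa6 at -0.19 ± 0.21 below. Hoxb7, Hoxb8 and Hoxd8 were within 0.12 of WT. Hoxc6 was at 0.08 without WT replicate 4 and 0.16 without Kat6a-/- replicate 2, and Hoxa6 ran from -0.38 without WT replicate 4 to -0.01 without WT replicate 2. The median over the 8 members was 0.10, against 0.00 over all genes tested. At an unadjusted p under 0.05, 2 of 8 members passed, Hoxa7 upwards and Hoxb6 downwards, where 16.9% of all genes did. By edgeR the number was 2 with surrogate variables and 3 without, and by DESeq2 3. At the adjusted threshold 2.64% of all genes were called. In 1 of 8 members, Hoxa7, the 4 Kat6a-/- embryos did not overlap with WT, where 11.9% of all genes showed this. Both shares for the members were close to those of all genes. Hoxa7 passed the adjusted threshold when only the WT and Kat6a-/- embryos were fitted (0.55, adjusted p = 0.0292) and when Kat6aE/E replicate 2 was left out of the fit (0.52, adjusted p = 0.033). Within the 1 litter that held a WT and a Kat6a-/- embryo, Hoxa7 differed by 0.05, Hoxc6 by 0.40, Hoxa6 by 0.26 and Hoxc8 by 0.13. Hoxb6 at -0.12, Hoxb7 at -0.05, Hoxb8 at -0.13 and Hoxd8 at -0.22 were below WT there. The Kat6a-/- embryo of this pair (replicate 2) had Xist at 527 CPM and the WT embryo at 0.173. Genotype and Xist level cannot be told apart in it.

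In Kat6b-/- embryos all 8 members were above WT, with a median of 0.29, where 50.2% of all genes were above 0. Hoxa7 was the highest at 0.47 ± 0.18 (adjusted p = 0.291), followed by Hoxc6 at 0.38 ± 0.13 (adjusted p = 0.216), Hoxa6 at 0.31 ± 0.20, Hoxd8 at 0.29 ± 0.14 (adjusted p = 0.412), Hoxc8 at 0.28 ± 0.11 (adjusted p = 0.27) and Hoxb7 at 0.25 ± 0.13. Hoxb6 at 0.15 ± 0.14 and Hoxb8 at 0.07 ± 0.15 were nearest to WT. Hoxc6, Hoxc8, Hoxa7 and Hoxd8 passed an unadjusted p under 0.05, 4 of 8 where 12.1% of all genes did, and 0.508% of all genes were called at the adjusted threshold. edgeR gave 3 with surrogate variables and 5 without, and DESeq2 gave 5. In 3 of 8, Hoxa7, Hoxc6 and Hoxc8, the groups did not overlap, where 6.61% of all genes showed this. Since the members move together between embryos, these counts do not stand for 8 independent genes. The count of 8 above WT rested on WT replicate 4. Without it Hoxb8 was at -0.04 and Hoxb6 at 0.00, and the others dropped to 0.24 for Hoxc6, 0.36 for Hoxa7, 0.15 for Hoxa6, 0.16 for Hoxb7, 0.21 for Hoxc8 and 0.10 for Hoxd8. Without WT replicate 2 or 3, Hoxa6 was at 0.49 and 0.46 and Hoxb6 at 0.23 and 0.24. Within the 1 litter shared by a WT and a Kat6b-/- embryo, Hoxa7 differed by 0.76, Hoxc6 by 0.28 and Hoxc8 by 0.27. Hoxa6 at -0.12, Hoxb6 at -0.09 and Hoxb8 at -0.17 were below WT there. The Kat6b-/- embryo of this pair (replicate 2) had Xist at 636 CPM and the WT embryo at 0.0846, so that genotype and Xist level cannot be told apart.

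In Kat6aE/E embryos 7 of 8 members were below WT, with a median of -0.23, led by Hoxd8 at -0.33 ± 0.15 (adjusted p = 0.456), Hoxa6 at -0.33 ± 0.21 (adjusted p = 0.65), Hoxb7 at -0.30 ± 0.13 (adjusted p = 0.434) and Hoxb6 at -0.30 ± 0.14 (adjusted p = 0.49). Hoxc8 alone was above WT, at 0.08 ± 0.10. At an unadjusted p under 0.05, 3 of 8 passed, Hoxb6, Hoxb7 and Hoxd8, where 10% of all genes (1421 of 14183) did. edgeR gave 3 with surrogate variables and 2 without, and DESeq2 3. At the adjusted threshold 0.275% of all genes were called. No member was without overlap, where 4.94% of all genes were. Single embryos moved these values both ways. Without Kat6aE/E replicate 2, the embryo lowest for 6 of the 8, 5 members were below WT, with Hoxd8 at -0.23, Hoxa6 at -0.15, Hoxc6 at 0.07 and Hoxa7 at 0.15. Without WT replicate 4, Hoxd8 was at -0.58, Hoxa6 at -0.56 and Hoxb6 at -0.46. Without Kat6aE/E replicate 1, Hoxa6 was at -0.64, Hoxd8 at -0.58, Hoxb7 at -0.47 and Hoxb6 at -0.46, and without WT replicate 2 Hoxa6 was at -0.14. The 1 litter shared by a WT and a Kat6aE/E embryo had Hoxa6 at -0.38, Hoxb6 at -0.26, Hoxd8 at -0.19 and Hoxb7 at -0.18. Hoxc6 was at -0.0035 there, Hoxb8 at 0.0014, Hoxc8 at 0.05 and Hoxa7 at 0.22. In Kat6bE/E embryos 4 members were above and 4 below WT, from -0.19 ± 0.21 for Hoxa6 to 0.07 ± 0.19 for Hoxa7. Leaving out 1 library moved Hoxa6 between -0.32 (WT replicate 4) and 0.01 (Kat6bE/E replicate 3). In Kat6bE/E against WT 0 of 8 passed an unadjusted p under 0.05 by limma, by edgeR or by DESeq2, where 4.41% of all genes did by limma. No gene was called at the adjusted threshold (0% of all genes), and no member was without overlap, where 2.31% of all genes were.

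In double mutants 4 members were above and 4 below WT, and the order differed from that in either single mutant. Hoxd8 was highest at 0.29 ± 0.14 (adjusted p = 0.291) and Hoxc6 next at 0.22 ± 0.14 (adjusted p = 0.406), while Hoxb8 was lowest at -0.29 ± 0.15 (adjusted p = 0.343) and Hoxb6 next at -0.23 ± 0.15 (adjusted p = 0.435). Without WT replicate 4, Hoxd8 was at 0.08, Hoxc6 at 0.05 and Hoxb6 at -0.38. Without surrogate variables and litter block 6 members were above WT, with a median of 0.23 against 0.02. Double mutant replicate 2, the double mutant embryo with the highest members (mean deviation 0.32 log2), had a leverage of 0.88 in the main fit. Leverage tells how closely a fit follows a single library, and the other E9.5 embryos had 0.263 to 0.595. No member passed an unadjusted p under 0.05, where 18.2% of all genes did. edgeR gave 0 with surrogate variables and 1 without, and DESeq2 1. At the adjusted threshold 2.91% of all genes were called, and 7.31% of all genes were without overlap against 0 of 8 members. The departure of the double mutant from the sum of the 2 single mutants tests whether the point mutations combine additively. For Hoxd8 it was 0.74 ± 0.21, the value with the smallest unadjusted p among all the members' comparisons (0.00239), and it did not pass the adjustment over all genes (adjusted p = 0.504). Its 95% interval ran from 0.29 to 1.18. It was the 1 member of 8 at an unadjusted p under 0.05, where 6.42% of all genes were, and edgeR with or without surrogate variables and DESeq2 each gave 1. No gene was called for the departure (0% of all genes). Over the alternatives tried the Hoxd8 departure stayed between 0.64 and 1.10, and Hoxa6, the next at 0.47 ± 0.31, had an interval from -0.18 to 1.13 and ran from 0.27 without WT replicate 2 to 0.78 without Kat6aE/E replicate 1. The flanking Hox genes had departures too. In the Hox genes of groups 9 to 13 it was above 0 in 14 of 15, with a median of 1.15 and 5 at an unadjusted p under 0.05, and in groups 1 to 5 above 0 in 12 of 15, with a median of 0.17 and 4 at such a p. None of them passed the adjustment.

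**Figure D3:**
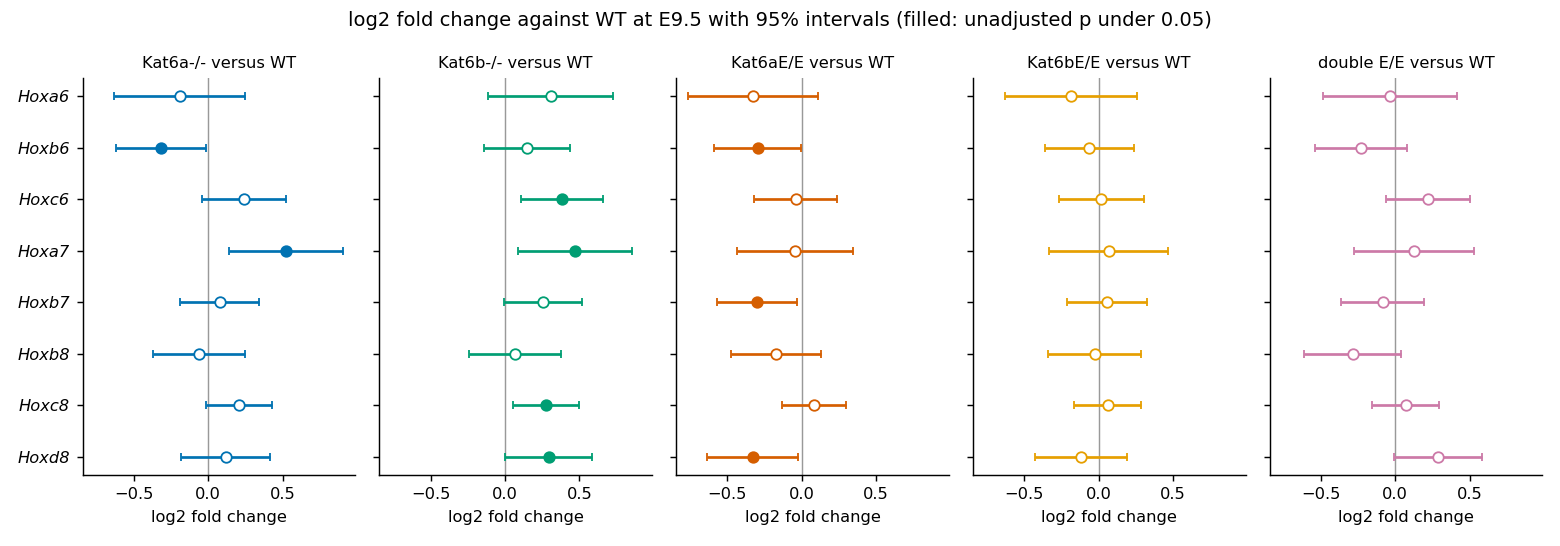
Log2 fold changes of the 8 members at E9.5 from the limma fit, 1 panel per mutant genotype against WT, with bars for the 95% confidence interval. In Kat6b-/- embryos all 8 points are above 0, in Kat6aE/E embryos 7 of 8 are below 0, and in double mutants Hoxd8 is highest at 0.29.

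Point mutants were also set against the nulls, which tests the difference itself. Kat6aE/E embryos had less Hoxa7 than Kat6a-/- embryos (-0.56 ± 0.19, adjusted p = 0.138), less Hoxd8 (-0.45 ± 0.16, adjusted p = 0.148) and less Hoxb7 (-0.38 ± 0.14, adjusted p = 0.162) in the estimates, none past the threshold. These 3 of 8 passed an unadjusted p under 0.05, where 15.6% of all genes did, and edgeR gave 3 with surrogate variables and 4 without and DESeq2 4. At the adjusted threshold 1.60% of all genes were called. Hoxb6 differed by 0.02 ± 0.15, with a 95% interval of -0.30 to 0.34. Without Kat6aE/E replicate 2 Hoxa7 was at -0.37. The calls changed with the fit. Without surrogate variables and litter block Hoxa7 passed (-0.74, adjusted p = 0.0459), with 6 surrogate variables Hoxd8 passed (-0.50, adjusted p = 0.0365), with genes detected per library as a covariate Hoxd8 passed (-0.50, adjusted p = 0.0495), and without Kat6aE/E replicate 1 Hoxa7 (-0.81, adjusted p = 0.0257), Hoxb7 (-0.55, adjusted p = 0.0451) and Hoxd8 (-0.71, adjusted p = 0.0487) all did.

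All 8 members were lower in Kat6bE/E than in Kat6b-/- embryos in estimate, from -0.10 ± 0.15 for Hoxb8 to -0.49 ± 0.21 for Hoxa6 (adjusted p = 0.528), with Hoxd8 at -0.41 ± 0.15 (adjusted p = 0.404), Hoxa7 at -0.40 ± 0.18 (adjusted p = 0.553) and Hoxc6 at -0.36 ± 0.13 (adjusted p = 0.441). These 4 of 8 passed an unadjusted p under 0.05, where 8.83% of all genes did, with 3 by edgeR with surrogate variables, 4 without, and 4 by DESeq2. At the adjusted threshold 0.0353% of all genes were called. Between the double mutant and Kat6a-/- embryos 0 of 8 passed an unadjusted p under 0.05 by limma, edgeR or DESeq2, where 10.4% of all genes did by limma, and 0.00705% of all genes were called. There Hoxa7 was furthest from 0 at -0.40 ± 0.19 (adjusted p = 0.483).

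The 2 nulls differed most in Hoxb6, which was lower in Kat6a-/- than in Kat6b-/- embryos (-0.47 ± 0.14, adjusted p = 0.0872), and in Hoxa6 (-0.50 ± 0.20, adjusted p = 0.201). Hoxa7, high in both, differed by 0.05 ± 0.17 between them (interval -0.31 to 0.41). At an unadjusted p under 0.05, 2 of 8 passed, where 17.3% of all genes did, and 1.64% of all genes were called. edgeR gave 2 with surrogate variables and 1 without, and DESeq2 1. Hoxb6 passed the adjusted threshold with 6 surrogate variables (-0.38, adjusted p = 0.048), without Kat6aE/E replicate 1 (-0.49, adjusted p = 0.0355) and without Kat6bE/E replicate 3 (-0.48, adjusted p = 0.0431). With only the libraries of the 2 nulls in the fit, Hoxb6 (-0.48, adjusted p = 0.0468) and Hoxa6 (-0.51, adjusted p = 0.0387) both passed.

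The members varied together from embryo to embryo. Over the 24 E9.5 libraries the 28 pairs of members had Pearson correlations of log2 CPM from 0.41 to 0.87 (median 0.75), and after each genotype was centred on its own mean from 0.49 to 0.85 (median 0.70), as a description of libraries that share depth and tissue make-up. The 5 pairs within a cluster had a median of 0.80 after centring, the 7 pairs within a paralog group 0.68 and the 16 other pairs 0.69. Averaged over the members, the deviation from the mean of all embryos was lowest in Kat6aE/E replicate 2 (-0.79 log2), WT replicate 4 (-0.49) and Kat6aE/E replicate 3 (-0.41), and highest in Kat6b-/- replicate 1 (0.54). In Kat6aE/E replicate 2 all 8 members were among the lowest 2 of 24, and in Kat6b-/- replicate 1, 7 members were among the highest 2. By genotype the mean deviation was 0.32 ± 0.16 in Kat6b-/-, 0.08 ± 0.19 in double mutants, 0.06 ± 0.09 in Kat6a-/-, -0.06 ± 0.20 in Kat6bE/E, -0.06 ± 0.31 in WT and -0.33 ± 0.39 in Kat6aE/E embryos (SD, n = 4). All 4 Kat6b-/- embryos, from 0.17 to 0.54, lay above 0, while the other 5 genotypes held embryos on both sides.

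**Figure D4:**
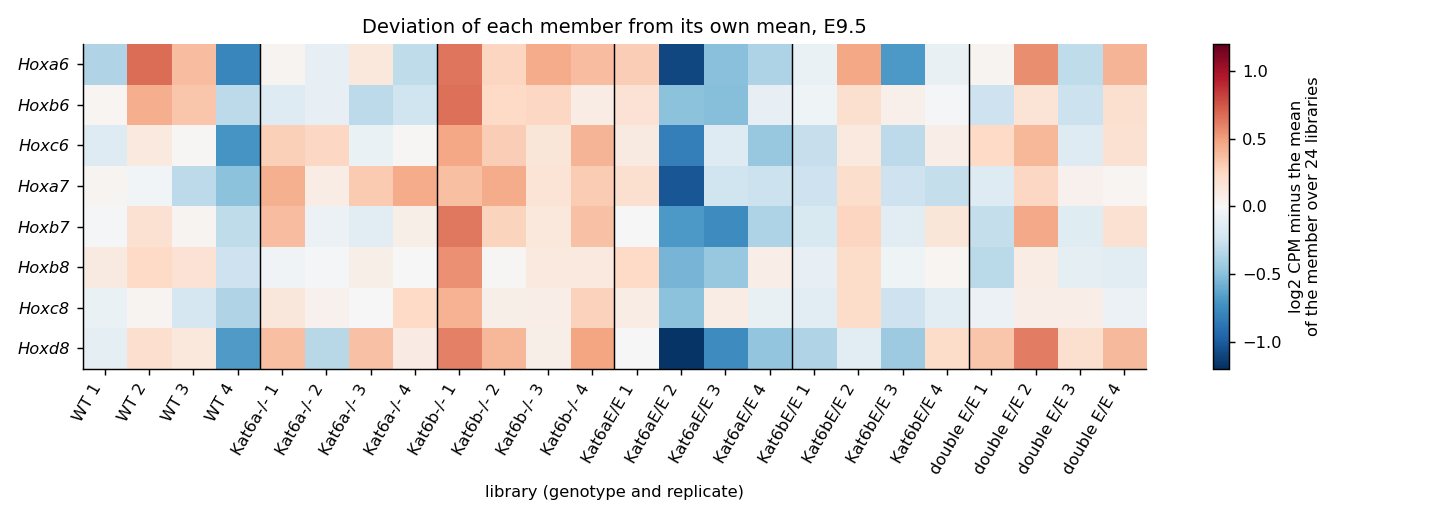
Deviation of each member from its mean over the 24 E9.5 embryos (log2 CPM), with 1 column per embryo grouped by genotype. Whole columns share a colour: Kat6aE/E replicate 2 and WT replicate 4 are low across members, and Kat6b-/- replicate 1 is high.

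Markers of the growing tail end were low in some of the same embryos. The summed level of 6 genes of presomitic mesoderm and tail bud (T, Tbx6, Msgn1, Wnt3a, Fgf8 and Hes7), the region where axial Hox genes are switched on, was 28.4 to 55.5 CPM in WT, 55 to 100 in Kat6a-/-, 56.2 to 89.8 in Kat6b-/-, 28.1 to 60.7 in Kat6aE/E, 29.4 to 59.9 in Kat6bE/E and 60.7 to 83.0 in double mutant embryos. It was near the low end, as the members were, in Kat6aE/E replicate 2 (28.1 CPM, members at -0.79) and WT replicate 4 (30.3, members at -0.49). The same held for Kat6aE/E replicate 4 (29.3, members at -0.25) and Kat6bE/E replicate 3 (29.4, members at -0.26). Other embryos did not follow: Kat6aE/E replicate 3, with the members at -0.41, had the highest sum of its genotype (60.7), and WT replicate 1 had a sum of 28.4 with its members near the mean (-0.07). In the estimates all 6 genes were above WT in Kat6a-/- (median 0.61), Kat6b-/- (median 0.82) and double mutant embryos (median 0.65). In Kat6aE/E embryos 3 of 6 were above WT and in Kat6bE/E embryos 4 of 6. None of the 6 genes was called in any E9.5 comparison. Other markers moved in Kat6a-/- embryos. Of 6 markers of spinal cord and hindbrain progenitors 5 fell there, among them Dbx1 at -0.84 ± 0.18, Nkx6-1 at -0.80 ± 0.18 and Irx3 at -0.23 ± 0.05 (adjusted p = 0.022, 0.0282 and 0.0187), with a median of -0.65 and summed levels of 151 to 190 CPM against 247 to 263 in WT. Tbx5, the forelimb field factor, also fell (-0.44 ± 0.11, adjusted p = 0.0263), and in double mutants the somite gene Uncx fell (adjusted p = 0.00557). The part of these tissues in the differences was not tested. The genes whose levels over the 24 embryos were most like the members' mean were Hoxa9 (r = 0.87), Efna3 (0.87), Ets2 (0.86), Hoxd9 (0.86) and Hoxa5 (0.84), and 15 of the 50 nearest genes were Hox genes, out of 30 other Hox genes tested.

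Some of the flanking Hox genes were called at E9.5, and whether they differed from the mid-cluster members was not tested. Against WT, 2.64% of all genes were called in Kat6a-/-, 0.508% in Kat6b-/- and 2.91% in double mutant embryos. Of the 15 genes of groups 1 to 5, at the anterior end, 1 rose and 3 fell in Kat6a-/- embryos, with Hoxa2 at -0.50 ± 0.10 (adjusted p = 0.00952) and Hoxd1 at 0.67 ± 0.17 (adjusted p = 0.0336), and the list's median was -0.23. In the double mutant 2 of them fell, Hoxa2 at -0.41 ± 0.10 and Hoxb5 at -0.39 ± 0.10 (adjusted p = 0.0318 and 0.0298). Hoxd1 was lower in Kat6aE/E than in Kat6a-/- embryos (-0.90 ± 0.18, adjusted p = 0.00952), and Hoxb1, Hoxc4 and Hoxa5 were lower in Kat6a-/- than in Kat6b-/- embryos (-0.51, -0.44 and -0.33). None was called in the other 6 comparisons at E9.5. In Kat6aE/E embryos all 15 were below WT, with a median of -0.24 and 9 at an unadjusted p under 0.05. Of 15 genes tested in groups 9 to 13, at the posterior end, 1 rose in Kat6b-/- embryos, Hoxc9 at 0.53 ± 0.12 (adjusted p = 0.0461). All 15 were above 0 there with a median of 0.53, and none was called in any other E9.5 comparison. In Kat6aE/E embryos 14 of the 15 were below WT, with a median of -0.44 and 3 at an unadjusted p under 0.05, beside a median of -0.23 for the members. The members' own median in Kat6b-/- embryos, 0.29, lay between 0.08 for groups 1 to 5 and 0.53 for groups 9 to 13. None of the 9 TALE cofactors (PBX, MEIS and PKNOX proteins that bind DNA with HOX proteins) was called at E9.5, nor any of the 8 tested at E14.5. In Kat6aE/E LSK samples 0 of these 8 were above WT, with a median of -0.31. An unadjusted p under 0.05 was found there for 4 of the 8 and for 12.5% of all genes. Of 16 regulators of Hox clusters such as the CDX factors and Polycomb and Trithorax proteins, 1 was called at E9.5, Bmi1, a Polycomb repressor, which rose by 0.30 ± 0.06 in Kat6aE/E and 0.33 ± 0.06 in double mutant embryos (adjusted p = 0.0182 and 0.00498). Of 8 genes for the KAT6 complexes 1 was called at E9.5, Kat6b itself, which was higher in Kat6b-/- than in WT (0.41 ± 0.07, adjusted p = 0.00441) and than in Kat6a-/- embryos.

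In LSK cells Hoxa7 and Hoxa6 were the members with more than traces. Over the 16 samples Hoxa7 had 7736 counts and Hoxa6 2613, while Hoxb6 had 107, Hoxb7 58, Hoxc6 50, Hoxd8 42 and Hoxb8 22. Hoxc8 had 0, which allows up to 3 counts and thus 0.00802 CPM over the pooled samples (counting error only). Single samples held much of the traces: 43 of the Hoxb6 counts were in Kat6aE/E replicate 2, 37 of the Hoxb7 counts in double mutant replicate 2 and 38 of the Hoxd8 counts in double mutant replicate 4. These are libraries with few genes detected, and no difference between genotypes was tested for the 6 members under the filter.

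Hoxa7 measured 37.1, 27.6, 30.2 and 14.2 CPM in WT, 29.4, 12.4, 28.0 and 29.7 in Kat6aE/E, 21.0, 12.2, 14.8 and 24.4 in Kat6bE/E and 23.6, 3.53, 5.03 and 9.89 in double mutant samples. The double mutant replicates 2, 3 and 4 were below all other samples, and replicate 1 was within the range of the others. Hoxa6 measured 8, 10.3, 10.1 and 5.44 CPM in WT, 8.08, 4.06, 9.98 and 8.24 in Kat6aE/E, 7.95, 4.03, 3.59 and 10.6 in Kat6bE/E and 8.63, 1.51, 3.15 and 5.35 in the double mutant, and was lowest in double mutant replicates 2 and 3. The low values went with properties of the libraries. In 4 libraries, Kat6aE/E replicate 2 and double mutant replicates 2 to 4, 12600 to 13683 genes were detected, against 16082 to 17647 in the other 12. These 4 had Hoxa7 at 3.53 to 12.4 CPM against 12.2 to 37.1, and the haemoglobin gene Hba-a1 at 1940 to 4720 CPM against 123 to 1630. Double mutant replicates 2 to 4 also came from 1 litter, so that litter, library and genotype cannot be told apart for them. Among the other 12, WT replicate 4 and Kat6bE/E replicates 2 and 3 had low Hoxa7 together with low Cd34, a stem and progenitor marker (395, 349 and 373 CPM), and high Klf1, an erythroid factor (211, 296 and 291 CPM). The part of cell make-up in the levels was not tested.

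**Figure D5:**
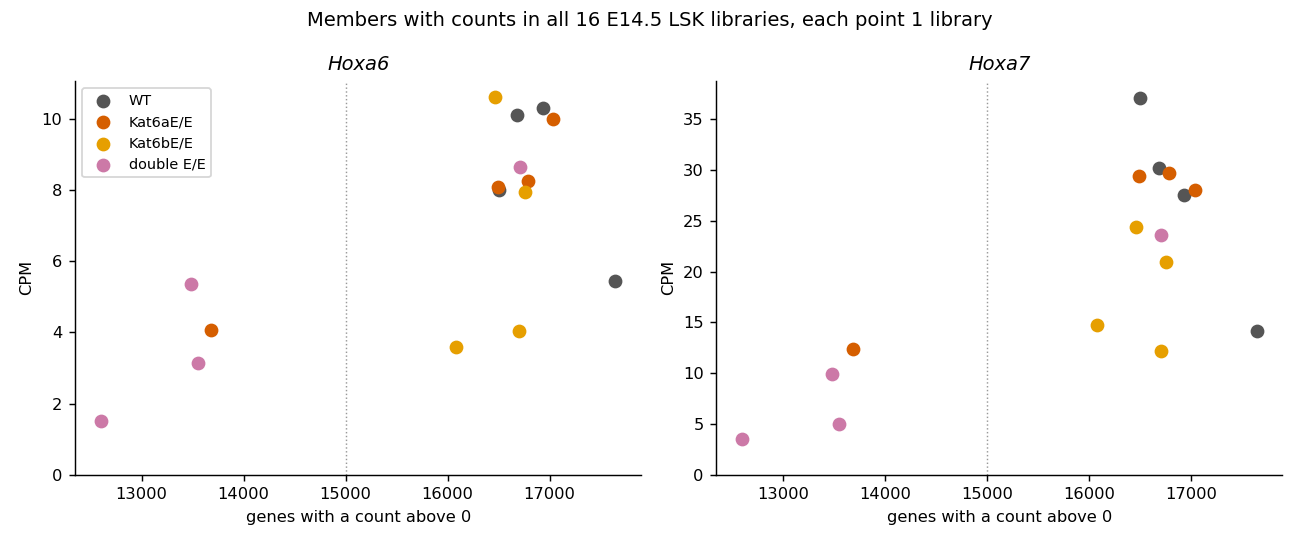
CPM of Hoxa6 and Hoxa7 against the number of genes detected in the 16 E14.5 LSK samples, coloured by genotype, with a dotted line at 15000 genes. The 4 libraries below that line lie at 3.53 to 12.4 CPM for Hoxa7 and the other 12 at 12.2 to 37.1.

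With surrogate variables in the fit, neither gene passed the threshold against WT in any LSK genotype. Hoxa7 was at 0.09 ± 0.15 in Kat6aE/E (adjusted p = 0.879), -0.01 ± 0.19 in Kat6bE/E (adjusted p = 1) and -0.18 ± 0.23 in double mutant samples (adjusted p = 0.913), and Hoxa6 at 0.02 ± 0.21, 0.03 ± 0.27 and 0.02 ± 0.33. Both genes missed the adjusted and the unadjusted threshold in all 5 comparisons. Of all genes, 1.36% were called in Kat6aE/E and 12.5% had an unadjusted p under 0.05, against 0% and 2.78% in Kat6bE/E and 0% and 6.85% in the double mutant. Neither gene was without overlap with WT, where 4.10%, 3.92% and 4.53% of all genes were. The double mutant differed from Kat6aE/E by -0.27 ± 0.24 in Hoxa7 (adjusted p = 1), where 0% of all genes were called and 1.51% had an unadjusted p under 0.05, and the departure from additivity was -0.26 ± 0.26 (adjusted p = 0.905), where 0% were called and 4.99% had one. edgeR with surrogate variables gave 0 at an unadjusted p under 0.05 in all 5 comparisons. Without them edgeR, like DESeq2, gave 0 in Kat6aE/E and Kat6bE/E against WT and for the departure, and 1, Hoxa7, in the double mutant against WT and against Kat6aE/E.

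For the double mutant these values rested on the fit and on 1 library. Without surrogate variables and litter block Hoxa7 stood at -1.36 (adjusted p = 0.225), by edgeR without surrogate variables at -1.36 (adjusted p = 0.224) and by DESeq2 at -1.37 (adjusted p = 0.133). Without double mutant replicate 1, the 1 double mutant library with a usual number of genes detected, Hoxa7 was called lower than in WT (-1.14, adjusted p = 0.00866), lower than in Kat6aE/E (-1.13, adjusted p = 0.0105) and below additivity (-1.09, adjusted p = 0.0175). Without the 4 libraries with few genes detected the double mutant was that 1 sample, which gives no test, and with 0 surrogate variables Hoxa7 was at 0.04. The 4 surrogate variables fitted these libraries almost exactly, with leverages of 0.977 to 0.998 for the 4 and 0.918 for double mutant replicate 1. For Hoxa7 in double mutant LSK cells, genotype and library quality cannot be told apart in this design. Among the other Hox genes, Hoxb4, known for expanding blood stem cells, rose in Kat6aE/E samples (0.81 ± 0.19, adjusted p = 0.0398), the 1 called of 8 tested in groups 1 to 5, and neither of the 2 tested in groups 9 to 13 was called. Of 13 regulators tested Pcgf2, a Polycomb component, fell (-0.68 ± 0.15, adjusted p = 0.03), and no gene of these lists was called in the other 4 LSK comparisons. Among the markers, Gata2, a stem and progenitor factor, fell in Kat6aE/E samples (-0.57 ± 0.08, adjusted p = 0.00353). It was the 1 called of 8 LSK markers, of which 6 were above WT, with a median of 0.14 over the list. Lyz2, lysozyme of mature myeloid cells, rose in Kat6aE/E samples (0.54 ± 0.08, adjusted p = 0.00548). It was the 1 called of 5 mature myeloid markers, of which 5 were above WT, with a median of 0.33.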

How the data were processed

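RNA was sequenced from 24 whole E9.5 embryos and from 16 E14.5 fetal liver LSK samples. Per the labels, unstranded poly(A) libraries (TruSeq RNA Library Prep Kit v2) were sequenced as read pairs. The authors aligned the reads to mm39 with Rsubread and deposited raw counts of read pairs per RefSeq gene from featureCounts, with a gene length in bases for each gene. Tool versions were not given in the sources used here. Groups and litters were taken from the labels, and each sample had its own count file.

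From the counts, 20951 protein-coding genes without Y-linked genes were kept, of 26359 that matched by identifier (52 of 26411 did not). Genes were filtered with filterByExpr and scaled by TMM. Following the methods of the study, counts were fitted with limma 3.58.1 and edgeR 4.0.16 (voomLmFit, R 4.3.3) with genotype, 4 surrogate variables (wsva) and litter as a random block, separately for each stage, and tested with robust empirical Bayes moderation. P values were adjusted by the Benjamini-Hochberg method over all genes tested, and a gene was called at an adjusted p under 0.05. The edgeR quasi-likelihood test and DESeq2 1.42.0 were run as alternatives. CPM and FPKM were computed from TMM-scaled totals and the deposited gene lengths. The scripts were tested on simulated counts.

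All 8 members are named in every comparison. From each list the counts are given with at most the 3 called genes of smallest p (1 such gene is not reported here), and the 5 genes nearest to the members' mean level are named. The rule for the members used symbols alone, but the choice of this gene family, like that of the lists and markers, was made with earlier results of these data known. Litter mates and repeat numbers apart, the labels do not say more about the origin of replicates, and p values measure the spread between these samples. The 60 replicate pairs differed by 2.28 to 100 times the chi-square expected of sampling noise, so that none was a repeat deposit. Floors and intervals on counts cover counting error only. Sequences were read from RefSeq tables (promoters on GRCm38.p6) and from GRCm39 with GENCODE vM39. Other alternatives were 0, 2 or 6 surrogate variables, no litter block, a replicate block, DESeq2 size factors, no filter, all gene types, only the libraries compared, leaving out each library and, chosen after seeing the data, Xist or genes detected as a covariate, no surrogate variables with no litter block, and no libraries with fewer than 15000 genes detected with 0 surrogate variables.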

Additional observations from a re-analysis of the deposited data

Results flagged for a closer look

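In 2 of 56 groups of 4 samples, 1 sample lay further from the other 3 than the 95% limit of Dixon's test allows, and chance gives this in about 1 of 20 groups. Hoxa7 was 19.7 CPM in E9.5 Kat6bE/E replicate 2, above 13.8 to 14.2 CPM in the other 3 embryos. Hoxa7 was 12.4 CPM in E14.5 Kat6aE/E replicate 2, below 28.0 to 29.7 CPM in the other 3 samples, and this library is 1 of the 4 in which fewer than 15000 genes were detected. The causes were not tested.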

How the results depend on the processing

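Over 3440 recomputed log2 fold changes of the members, 0 were called in the opposite direction, 17 were called in the same direction, 201 uncalled values had the other sign, and 55 of 90 pairs of member and comparison never changed sign. Of 550 recomputed counts of called members 14 were above 0. These were 1 in Kat6a-/- against WT embryos with only the libraries compared, 1 in Kat6aE/E against Kat6a-/- without surrogate variables and litter block, with 6 surrogate variables, by DESeq2 and with genes detected as a covariate, and, in Kat6a-/- against Kat6b-/-, 1 with 6 surrogate variables and 2 with only the libraries compared. The cause was not tested. Leaving out 1 library at a time gave 0 to 1 called member in Kat6a-/- against WT and in Kat6a-/- against Kat6b-/-, 0 to 3 in Kat6aE/E against Kat6a-/-, and 0 to 1 in the double mutant LSK samples against WT, against Kat6aE/E and for the departure from additivity, and 0 in each other comparison. With the replicate number added as a replicate block, 0 members were called in each of the 15 comparisons. Same-numbered samples did not deviate together (r from -0.23 to 0.31 over 60 pairs at E9.5 and -0.43 to 0.35 over 24 pairs at E14.5), so that the numbers do not pair the samples, and the replicate block moved the E9.5 count of all genes called from 375 to 277 for Kat6a-/- and from 72 to 200 for Kat6b-/-. FPKM without TMM scaling moved no E9.5 WT mean of a member by more than 1 SD. At E14.5, 6 of the 8 members had too few counts to be tested.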
